A study of Schizosaccharomyces pombe with 4 samples.

Results

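Fission yeast cells carrying clr3-CDx2 were compared with wild-type (wt) cells for H3K9me3, trimethylated lysine 9 of histone H3, while tetR-clr4 was ON. The comparison is the array titled clr3-CDx2 ON less the array titled wt ON, tile by tile, over 41133 of the 41551 tiles of the array. The other 418 tiles were left out because the scanner software marked their spots as non-uniform on one of these arrays. It uses 2 of the 4 arrays of the series, and of 5113 annotated protein-coding genes 4950 had a value on both. Each array is 1 sample, so no spread between replicates can be given, no p-value was computed, and each value below describes these arrays.

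Both strains are Schizosaccharomyces pombe cells with tetR-clr4, in which the H3K9 methyltransferase Clr4 is joined to the Tet repressor, a DNA-binding protein. ON cells had passed 20 generations in thiamine-free minimal medium (32 °C) and then 5 generations in 850 µg/ml 5-fluoroorotic acid, which is toxic to cells that express ura4, before they were fixed in 3% paraformaldehyde. The genotype labels name nothing else, and they do not say what the clr3-CDx2 allele is or whether each strain is 1 clone. OFF cells of both strains are the rest of the same cultures, moved for 14 generations into medium holding thiamine at 5 µg/ml and tetracycline at 2.5 µg/ml. Their values are set beside those of ON cells as a separate pair of arrays.

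In fission yeast, Clr4 methylates histone H3 at lysine 9, and the mark is bound by Clr4 itself and by the chromodomain proteins Swi6 and Chp2. Clr3 is a class 2 histone deacetylase of the SHREC complex (Clr1, Clr2, Clr3, Mit1 and Chp2), which keeps heterochromatin hypoacetylated. Pericentromeres, the silent mating-type locus, subtelomeres and the ribosomal DNA at the ends of chromosome III are the long-known domains of the mark. A tethered Clr4 makes a further, ectopic domain around its binding sites, and the series asks how histone deacetylation bears on the inheritance of such domains.

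Values are log2 ratios of precipitated (ChIP) to input signal with the median tile of each array at 0, and a difference is clr3-CDx2 minus wt in ON cells unless OFF is named. A difference of 1 is 2-fold. The arrays were alike over most of the genome: 94.1% of tiles differed by less than 0.5, with quartiles of -0.15 and 0.13 and Pearson's r of 0.962 between arrays across tiles, which share their probes and base composition. Over the unique tiles of the arms the SD of the difference was 0.234 (38916 tiles), a spread between tiles and not between samples. Of all tiles 202 were higher by at least 1 (0.491%) and 373 lower by at least 1 (0.907%). More of the higher ones lay at one place than anywhere else, 112 of the 202 in the outer 50 kb of the right end of chromosome I. The lower ones were spread over the subtelomeric clones (89), the left end of chromosome III (55), the ectopic domain (40), the pericentromeres (10, 17 and 5 on I, II and III), the mating-type contig (20), the right end of chromosome III (20) and unique tiles of the arms (100).

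**Figure D1:**
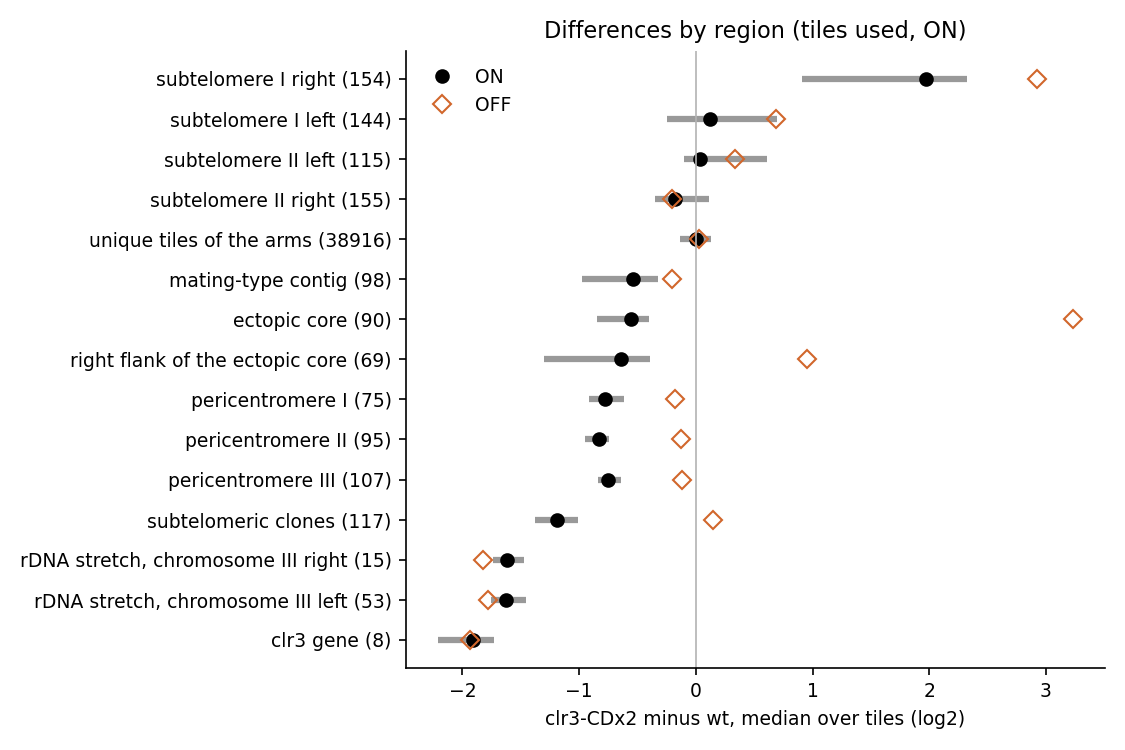
Median difference between clr3-CDx2 and wt (log2, x axis) in each region (y axis, with the number of tiles used in ON cells). Filled circles are ON cells with the quartiles over tiles as grey bars, and open diamonds are OFF cells. The right end of chromosome I is at 1.97 in ON cells, the pericentromeres lie between -0.83 and -0.75, and the ectopic core is below 0 in ON cells (0.086 under the pericentromeric scaling) and above 0 in OFF cells.

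The right end of chromosome I carried more H3K9me3 in clr3-CDx2. Over its outer 50 kb the median was 0.92 in wt and 2.89 in clr3-CDx2, a difference of 1.97 (3.92-fold, 154 tiles), and 143 tiles were higher and 11 lower. The ChIP signal alone was higher by 1.33 and the input signal lower by 0.48, so the input channel moved the other way, and its part in the ratio was not tested. The 91 unique tiles read 0.70 in wt and 2.97 in clr3-CDx2, and each of them was higher, with a median of 2.30. The 63 repeated tiles, whose sequence occurs elsewhere too, differed by 0.74. In OFF cells the region differed by 2.92.

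The difference was not highest at the very end. In steps of 5 kb inward from the last tile it was 0.26, 0.09, 0.83 and 1.21, then 2.23, 2.32, 2.39, 2.29 and 2.26 between 20 and 45 kb. Further in it was 1.87, 1.05, 0.62, 0.55 and 0.33, and 0.08 between 70 and 75 kb. The outermost 10 kb, all repeated tiles, were bright on both arrays, at 3.51 and 3.62 in wt and 3.68 and 3.70 in clr3-CDx2. From 10 to 15 kb all 11 tiles were repeated, from 15 to 20 kb 13 of 14, and from 20 to 25 kb 3 of 17. The smaller differences towards the end thus lie where tiles are repeated, and position and repeated sequence cannot be told apart there. The stretch from 45 to 50 kb read -0.17 in wt and 1.83 in clr3-CDx2, so a place at the array median in wt was enriched in clr3-CDx2. Counting runs of at least 5 tiles at 1 or more, wt had 4 domains here covering 24.3 kb, the longest of 16.2 kb, and clr3-CDx2 had 1 domain of 52.5 kb. The longest run of tiles that differed by at least 1 anywhere was here, 122 tiles over 38.1 kb from array position 5521800 to 5559600 of chromosome I, with a median of 2.22.

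**Figure D2:**
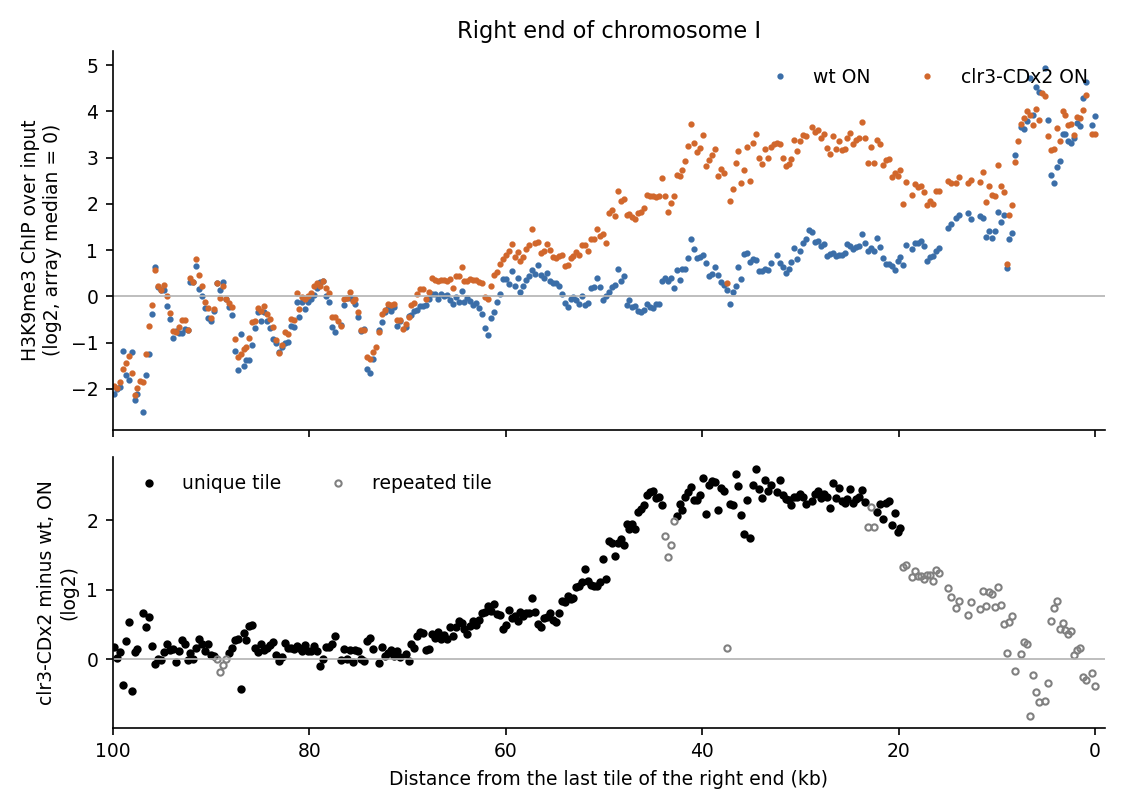
H3K9me3 at the right end of chromosome I against distance from its last tile (kb, x axis). Top, log2 ChIP over input in wt ON (blue) and clr3-CDx2 ON (orange), each point 1 tile. Bottom, their difference for unique (filled) and repeated (open) tiles. The arrays part between 70 and 50 kb from the end, stay apart from 45 to 20 kb, where each 5 kb median is above 2 though single tiles are lower, and are close again in the outermost 10 kb.

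Of 4950 genes, 19 were called higher (0.384%), meaning a gene median at least 1 higher that also reached 1 on one of the arrays, and 6 were called lower (0.121%). Of the 19, 12 are consecutive annotated genes at this end, from pfl9, about 51.4 kb from the end, to SPAC750.03c, at 16.5 kb. Most encode metabolic enzymes or membrane proteins, by the annotation. SPAC186.06, annotated as an isomerase, was the largest: 0.22 in wt and 2.88 in clr3-CDx2 (difference 2.66, 3 tiles). SPAC186.07c, a hydroxyacid dehydrogenase, read 0.65 and 3.22 (2.58, from 2 tiles). The pyruvate decarboxylase gene pdc102 read 0.94 and 3.35 (2.42, 5 tiles). None of these stood at 1 in wt, and all are close to or above 3 in clr3-CDx2.

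SPAC186.04c, of no annotated function, read 0.85 in wt and 3.21 in clr3-CDx2 (2.37), and SPAC186.08c, an L-lactate dehydrogenase, 1.15 and 3.47 (2.31). gdt1, of a conserved membrane protein family, read 0.47 and 2.76 (2.29), and the aldo/keto reductase gene SPAC750.01 1.02 and 3.06 (2.05). The asparaginase gene SPAC186.03 differed by 1.73, but all 4 of its tiles are repeated. It has 65.8% of its 31-base words in SPBPB21E7.09 of chromosome II, which differed by -0.28. Position and repeated sequence cannot be told apart at SPAC186.03. Further towards the centromere, on unique tiles, the differences were smaller: 1.68 at SPAC186.02c and 1.08 at pfl9. The gene pfl9, for a cell-surface glycoprotein of the DIPSY family, read 0.21 in wt and 1.28 in clr3-CDx2. Just inward of it, named after its value was seen, SPAC869.01, an amidase gene, differed by 0.66, and yhb1, which encodes a nitric oxide dioxygenase, by 0.52. On the telomere side SPAC750.02c and SPAC750.03c each differed by 1.21, and SPAC750.08c, the outermost gene, read 3.80 in wt and 3.51 in clr3-CDx2 (-0.29). In OFF cells the 12 genes differed in the same direction, from 1.80 at pfl9 to 3.56 at SPAC186.04c.

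Upstream sequence is shown for the called genes with the largest differences, 2 higher and 1 lower, among those with a complete annotated start, no other gene in the window and a tile within it. That of clr3 is added because a lower stretch begins there. Each is 250 bases before the annotated gene start, 5′ to 3′ on the strand of the gene, from RefSeq, build ASM294v3. Capitals mark TGACGT or its reverse complement, the core of the site bound by Atf1 and Pcr1, which help to place heterochromatin at the mating-type locus.
SPAC186.06, chrI:5541782-5542031, plus strand: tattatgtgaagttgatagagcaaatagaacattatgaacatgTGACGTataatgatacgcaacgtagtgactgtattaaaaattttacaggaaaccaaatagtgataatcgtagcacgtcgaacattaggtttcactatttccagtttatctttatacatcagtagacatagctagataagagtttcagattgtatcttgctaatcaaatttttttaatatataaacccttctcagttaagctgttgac
SPAC186.04c, chrI:5539520-5539769, minus strand: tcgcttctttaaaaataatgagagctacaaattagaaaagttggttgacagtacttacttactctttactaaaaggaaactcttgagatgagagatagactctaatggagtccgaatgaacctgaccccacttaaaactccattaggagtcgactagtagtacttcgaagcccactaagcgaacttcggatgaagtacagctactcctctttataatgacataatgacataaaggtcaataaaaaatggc
ade6, chrIII:1316031-1316280, plus strand: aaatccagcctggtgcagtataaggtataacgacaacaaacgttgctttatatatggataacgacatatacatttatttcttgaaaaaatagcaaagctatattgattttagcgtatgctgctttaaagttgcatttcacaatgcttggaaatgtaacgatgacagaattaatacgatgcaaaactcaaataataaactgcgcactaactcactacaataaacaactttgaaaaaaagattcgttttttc
clr3, chrII:254436-254685, plus strand: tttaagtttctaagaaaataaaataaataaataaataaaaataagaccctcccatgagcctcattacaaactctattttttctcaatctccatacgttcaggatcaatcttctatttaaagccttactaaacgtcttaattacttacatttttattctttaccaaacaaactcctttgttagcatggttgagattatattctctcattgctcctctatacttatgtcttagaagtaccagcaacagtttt
The motif occurs once in the window of SPAC186.06 and in none of the other 3. In the genome 242 of 4505 windows before complete gene starts hold it (5.37%), searched on both strands. That count also took in windows with another gene or without a tile. The tile in the SPAC186.06 window read -0.17 in wt and 2.06 in clr3-CDx2, and that before SPAC186.04c 0.73 and 2.82. The tile before ade6 read 3.47 and 2.26, and that before clr3 0.10 and -0.92. The windows differed in the same direction as the genes behind them. Since they adjoin genes picked for their differences, this is not a separate result.

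Outside this end, 7 further genes were called higher, all near other ends of chromosomes I and II and all with only repeated tiles. SPBPB2B2.16c, a transporter gene at the right end of chromosome II, has each of its 31-base words in SPAC750.02c, one of the 12 genes above, and the genes differed by 1.21 each. SPBC1348.05, at the left end of chromosome II (1.35), has 78.6% of its words in SPAC750.02c, and SPAC977.04, at the left end of chromosome I (1.09), has 73.0%. SPAC977.04 shares more with SPBC1348.05, 94.8% of its words. ftm2 (1.04) and ftm6 (1.29), of a subtelomeric membrane protein family and at the left ends of chromosomes I and II, share most with each other, 77.2% of their words. They have 54.6% and 53.9% of their words in ftm3 at the right end of chromosome I, which had too few tiles for a value. SPAC977.14c, an aldo-keto reductase gene of the left arm of chromosome I, read 0.76 in wt and 2.65 in clr3-CDx2 (1.89) and has 33.4% of its words in SPAC750.01. The last, SPAC977.18 (1.06), has 60.0% of its words in SPBPB2B2.18 of chromosome II, which differed by 0.94. On the ChIP signal alone SPBC1348.05 kept the call, at 1.17, and the other 6 did not, at 0.51 to 0.67. At the right end of chromosome I 9 of the 12 kept it, and pfl9 (0.76), SPAC750.02c (0.82) and SPAC750.03c (0.60) did not. Repeated tiles do not say which copy gave their signal, and this was not tested.

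Unique tiles give the other ends on their own. On chromosome II the unique tiles of the left end differed by -0.04 (63 tiles) and those of the right end by -0.28 (101 tiles), while their repeated tiles differed by 0.67 and 0.40. At the left end of chromosome I the 9 unique tiles read 1.95 in wt and 3.37 in clr3-CDx2, and all were higher, with a median of 1.10. Their ChIP signal alone was higher by 0.61 and their input signal lower by 0.51. Most of these tiles lie in a run of 8 tiles from array position 13500 to 15600 that differed by 1.32 and overlaps SPAC212.08c, a gene for a GPI-anchored protein. Nearer the telomere the left end was lower, by 0.82 in the outermost 5 kb. The helicase gene tlh1 lies there and read 4.80 in wt and 4.09 in clr3-CDx2 (-0.71), or 0.43 higher once both arrays were scaled to equal pericentromeric signal. Its relative tlh2 had no tile value. Without repeated tiles 8 of the 19 genes remained, and all 8 lie at the right end of chromosome I. In OFF cells 42 genes were called higher (0.848%), and these include all 18 of the 19 that could be measured there.

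The pericentromeres read lower in clr3-CDx2 by a similar amount on each chromosome, -0.78 on I, -0.83 on II and -0.75 on III. Each was taken as the longest stretch without a gene, and over the 277 tiles used the median was 1.29 in wt and 0.47 in clr3-CDx2, with a difference of -0.78 (1.72-fold lower). All 277 tiles were lower. Repeated tiles, which hold the outer repeats, differed by -0.80 and unique tiles by -0.71, although their levels in wt were far apart, at 3.29 and 0.46. Of the 360 pericentromeric tiles 83 were marked non-uniform on one of the arrays, and with these kept, as the plain comparison of all tiles has them, the medians were 3.56 and 2.76 and the difference -0.77. The ChIP signal alone was lower by 0.44 and the input signal higher by 0.36. The OFF arrays differed by -0.14.

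The mating-type contig read lower too. Its 98 tiles read 1.06 in wt and 0.80 in clr3-CDx2, with a median difference of -0.54, and 94 were lower. The 43 unique tiles, the bright ones, read 4.50 and 3.57 and differed by -0.87. Of the 4 silent mating-type genes of the list, 2 are in the annotation used, and these had too few tiles for a value. mat1-Mc, a transcription factor gene of M cells on chromosome II, read 3.70 in wt and 2.62 in clr3-CDx2 (-1.08, 2 tiles), but each of its 31-base words also occurs in the silent copy mat3-Mc. It was the only called lower gene outside chromosome III. In OFF cells it differed by -0.06.

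A group of unplaced subtelomeric clones on the array, 117 repeated tiles in all, read 2.55 in wt and 1.24 in clr3-CDx2, a difference of -1.19. Their ChIP signal alone was lower by 0.46 and their input signal higher by 0.61. The clones did not read alike. pNSU21, pNSU64 and pNSU65 differed by -1.16, -1.20 and -1.23, and pNSU77 by -1.41. pNSU71 differed by -0.03 as a whole but held a bright run of 7 tiles, 3.12 in wt and 2.05 in clr3-CDx2, that differed by -1.20. In OFF cells pNSU77 again differed by -1.42, while the clones as a whole differed by 0.14.

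The ribosomal DNA at the ends of chromosome III was also lower in clr3-CDx2, and by more than the pericentromeres. Over the stretch between the outermost annotated rRNA genes at the left end, wt read 0.82 and clr3-CDx2 -0.85, a difference of -1.63 (3.09-fold lower). All 53 tiles were lower by at least 1, and each of them is a repeated tile. At the right end the 15 tiles read 0.91 and -0.71 (-1.62), again each lower by at least 1. The 35 tiles inside rRNA genes at both ends together differed by -1.68. These tiles were above the array median in wt and below it in clr3-CDx2. Next to the ribosomal DNA the arrays were close, at -0.11 over 112 tiles on the left and -0.08 over 156 on the right. OFF cells differed in the same direction, by -1.78 on the left and -1.82 on the right. The ChIP signal alone was lower by 1.37 on the left in ON cells.

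**Figure D3:**
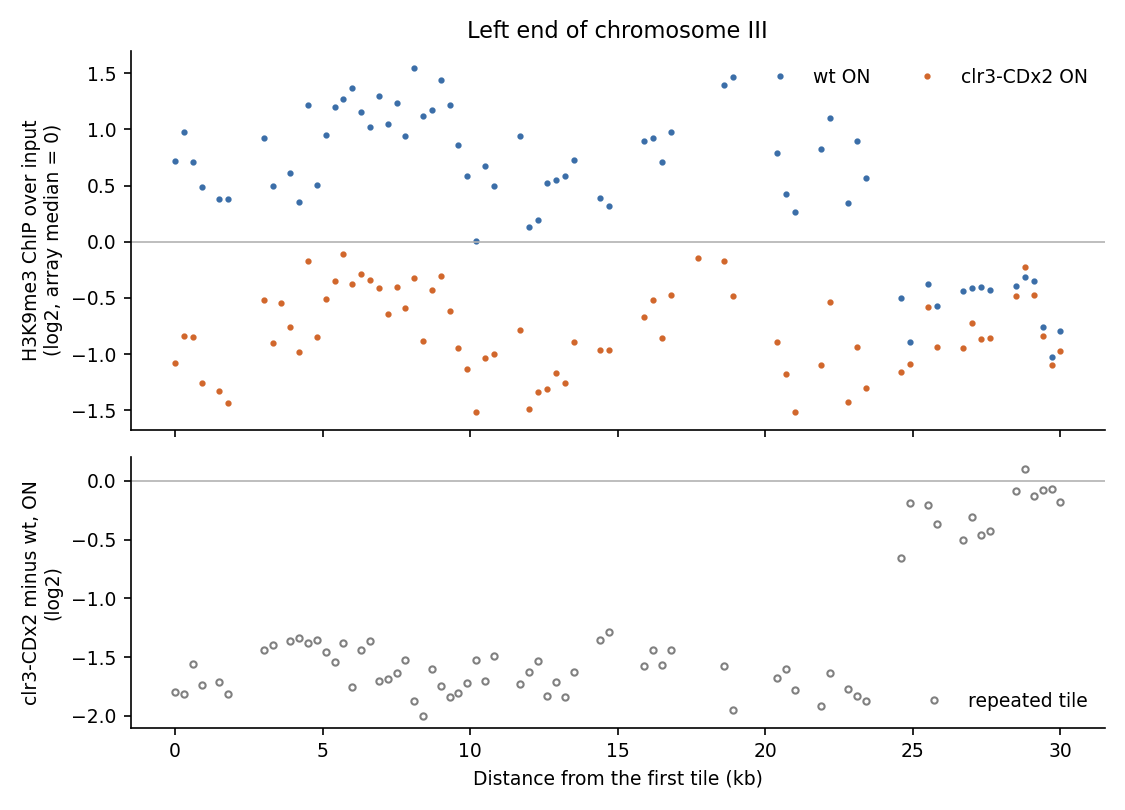
H3K9me3 at the left end of chromosome III against distance from the first tile (kb, x axis). Top, log2 ChIP over input in wt ON (blue) and clr3-CDx2 ON (orange). Bottom, their difference, every tile a repeated one. The difference stays near the median of -1.63 across the ribosomal DNA and is close to 0 further in.

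The ectopic domain lies around ura4 on the left arm of chromosome III. It was found by its level on both ON arrays, as the longest enriched run outside the regions above, and only the difference between genotypes is read here. In wt the run covered 48.6 kb, array positions 98700 to 147000, and in clr3-CDx2 27.3 kb, 99300 to 126300, which is also the core common to both. The core read 3.22 in wt and 2.67 in clr3-CDx2, a difference of -0.55 (1.47-fold lower, 90 tiles), with 86 tiles lower and 4 higher. To its right, the 69 tiles that belong to the run in wt alone read 1.78 and 1.05, a difference of -0.65, and all were lower. These tiles lie past the end of the clr3-CDx2 run, a choice that itself favours a negative difference, so nothing is read from its sign. They were not unmarked in clr3-CDx2. The clr3-CDx2 run ends at a dip (0.53 at position 128700), and further right the tile at 139200 read 3.60 in wt and 2.97 in clr3-CDx2. The ChIP signal alone was lower by 0.36 in the core and 0.57 in the flank. Scaling the arrays to equal pericentromeric signal turned the core to 0.086 and left the flank at -0.38.

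Within the domain the difference went up and down. By steps of 5 kb it was -0.48 at position 100000, -0.49 at 105000, -1.23 at 110000, -0.29 at 115000, where ura4 lies, and -0.85 at 120000. In the flank it was -0.86 at 125000, -1.34 at 130000, -0.63 at 135000 and -0.42 at 140000, and beyond it -0.10 at 145000. The longest lower run on a unique part of the genome was in the flank, 27 tiles over 8.1 kb from 128700 to 136500, which read 2.70 in wt and 1.38 in clr3-CDx2 (-1.32). Both troughs lie away from ura4 itself. The right one falls on a second maximum of the wt signal, where clr3-CDx2 also had a maximum, though a lower one.

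**Figure D4:**
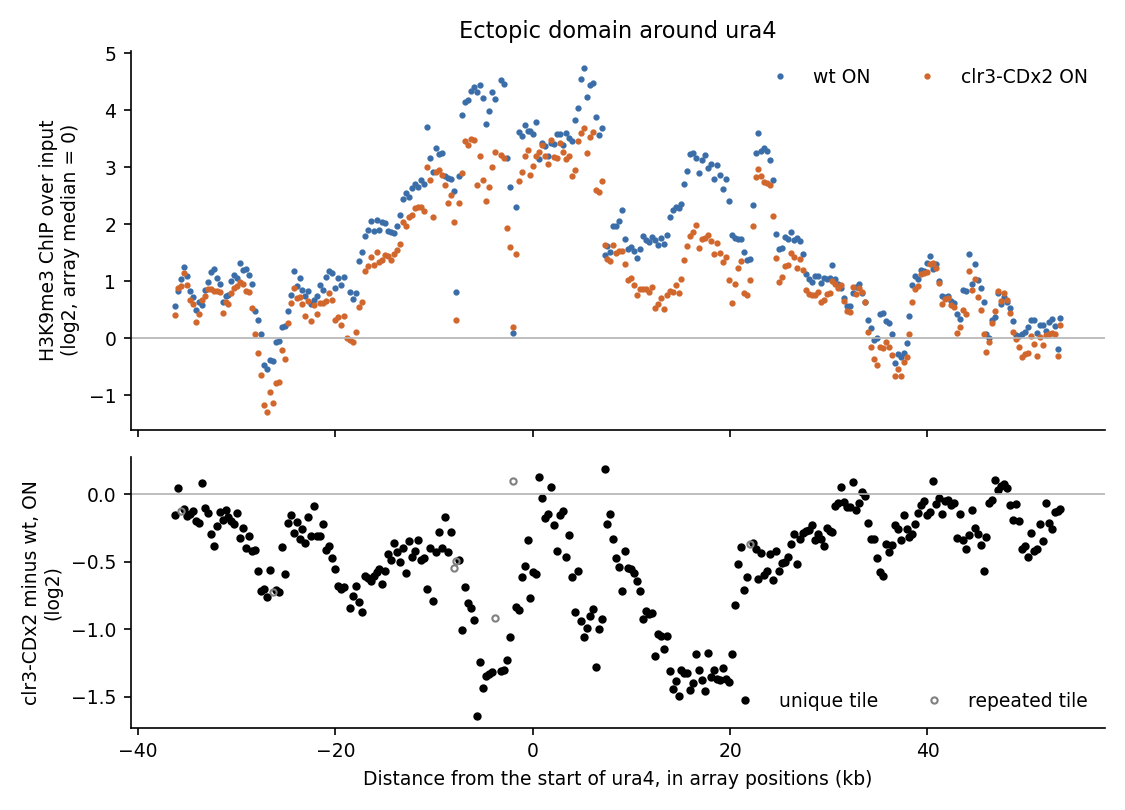
H3K9me3 around ura4 against distance from the start of ura4 in array positions (kb, x axis). Top, log2 ChIP over input in wt ON (blue) and clr3-CDx2 ON (orange). Bottom, their difference for unique (filled) and repeated (open) tiles. Differences of -1.2 or lower lie in a trough left of ura4 and in a wider one to its right, apart from 1 tile between them.

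All 11 genes within the core were below 0, against 45.7% of all measured genes. This sign was not particular to the core: all 10 genes of the flank were below 0 too. So were, outside the wt run, all 10 to the left and all 5 to the right. In the core ura4, which encodes orotidine 5′-phosphate decarboxylase, read 3.64 in wt and 3.20 in clr3-CDx2 (-0.44), or 0.44 higher under the pericentromeric scaling. pmp20, a thioredoxin-related gene, read 3.41 and 3.18 (-0.23). SPCC330.07c, a transporter gene, read 4.23 and 3.46 (-0.77) and SPCC330.03c, a cytochrome b5 reductase gene, 4.19 and 3.45 (-0.73). mug135, left of ura4, was the 1 core gene called lower, at 4.25 and 3.11 (-1.14).

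In the flank, where the choice of tiles favours lower values in clr3-CDx2, 3 genes were called lower, and they are neighbours. btb1, a gene for a ubiquitin ligase adaptor, read 3.01 in wt and 1.69 in clr3-CDx2 (-1.32, 14 tiles). sdh3, a subunit of succinate dehydrogenase, read 2.63 and 1.34 (-1.29), and the mRNA cap methyltransferase gene pcm1 1.97 and 0.79 (-1.19). enp2 beside them missed the threshold at -0.88. At the far side of the flank sry1, a serine racemase gene, read 3.31 and 2.84 (-0.47), and nip7 1.07 and 0.77 (-0.30). Outside the wt run, the 10 genes to the left had a median of -0.30 and the 5 to the right -0.09.

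ade6, an adenine synthesis gene on the right arm of chromosome III, was the other gene called lower: 3.64 in wt and 2.36 in clr3-CDx2 (-1.28), with its 6 tiles between -1.38 and -1.13. ade6 was as bright in wt ON as ura4. The labels do not say whether the strains carry a further copy of ade6. Its tiles would not tell such a copy from the gene at its own place, and this was not tested. The 6 called lower genes differed otherwise in OFF cells: none was called lower there, all but mat1-Mc were above 0, and mug135, ade6 and sdh3 were called higher. For ade6 the OFF values were 0.61 in wt and 4.04 in clr3-CDx2. On the ChIP signal alone, without division by input, none of the 6 was lower by 1 with that enrichment, and ade6 read -0.62, btb1 -0.78 and mug135 -0.96.

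The clr3 gene itself had the most negative difference of all genes. It read 0.55 in wt and -1.39 in clr3-CDx2 over 8 tiles, a difference of medians of -1.94, and the tiles differed by -2.32 to -1.20. The 18 tiles used beside it differed by -0.24. The edge was sharp on the upstream side, where the tile at array position 255000 differed by -0.10 and the next, at 255300, by -1.02. The low run ended at 258300, after the gene. In OFF cells clr3 differed by -1.97, nearly the same. The ChIP signal of clr3 was lower by 1.60 and its input signal higher by 0.42. The gene stood under 1 on each array, so it was not counted as enriched in either strain.

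**Figure D5:**
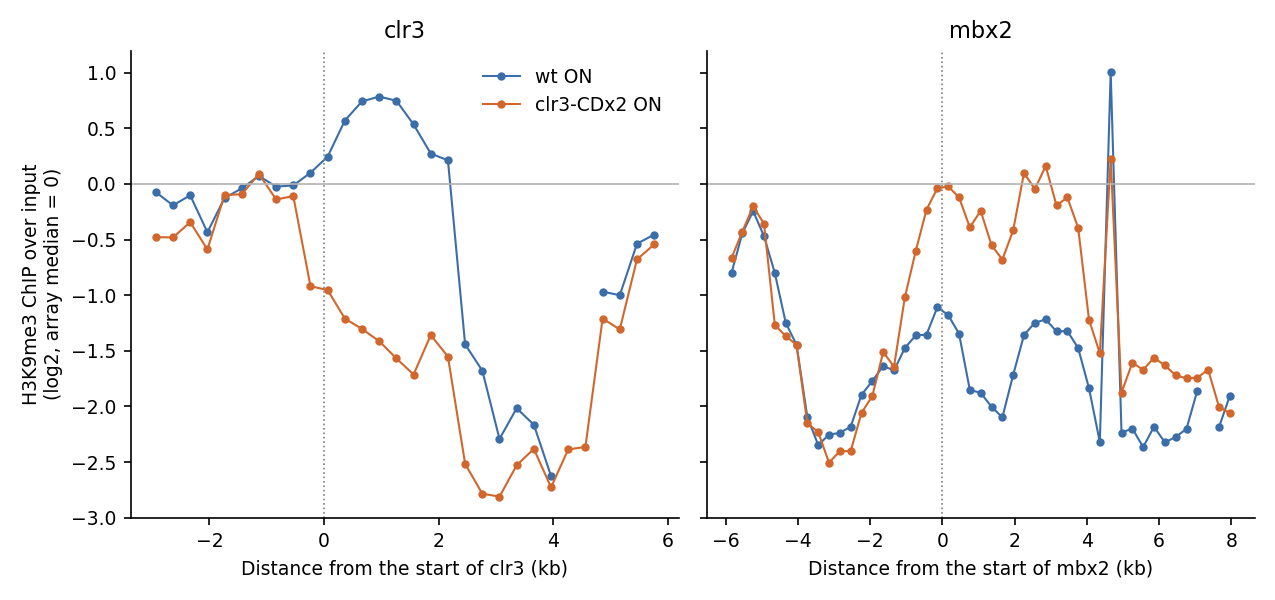
H3K9me3 at clr3 (left) and mbx2 (right) against distance from the annotated start of each gene (kb, x axis), as log2 ChIP over input in wt ON (blue) and clr3-CDx2 ON (orange), 1 point per tile. clr3-CDx2 is below wt across clr3 and above wt across mbx2, and the arrays meet again on the upstream side of both.

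Without asking for enrichment, 20 genes were higher by at least 1 (0.404%) and 10 lower (0.202%). The 1 gene this adds to the higher ones is mbx2, a MADS-box transcription factor gene. It read -1.85 in wt and -0.39 in clr3-CDx2 (1.46, 7 tiles), within a run of 15 unique tiles from 3627900 to 3632100 of chromosome II that differed by 1.22. Its ChIP signal alone differed by 1.46 and its input signal by 0.06. In OFF cells the difference at mbx2 was 0.35. The 4 genes added to the lower ones, named here after their values were seen, were clr3, lsd90 (-1.04), the chaperone activator gene aha1 (-1.04) and the aldehyde dehydrogenase gene atd1 (-1.03). In OFF cells lsd90 differed by 0.06, aha1 by -0.35 and atd1 by -0.09. One further higher run of 6 unique tiles lay at 2975100 to 2976600 of chromosome I, at the small gene SPAPB1A11.06, where wt read 0.97 and clr3-CDx2 2.07, and both OFF arrays read about -1.65.

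Among genes just outside the threshold, SPBPB2B2.18 differed by 0.94, SPBPB2B2.19c by 0.91 and SPBC1348.15 by 0.85, all on repeated tiles of chromosome II ends. On the lower side were enp2 (-0.88), tam14 (-0.85) and meu23 (-0.80), all in or beside the ectopic domain. The called genes therefore grade into neighbours of the same places.

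Genes of heterochromatin factors mostly read alike on both arrays. Of the SHREC genes other than clr3, mit1 read 1.41 in wt and 1.54 in clr3-CDx2, clr1 1.38 and 1.45, chp2 0.14 and 0.32, and clr2 0.67 and 0.39. The endogenous clr4 gene read 1.14 and 1.18, and rik1 1.44 and 1.57. The 5 SHREC genes had a median difference of 0.07. All measured genes had a median of 0.02. The 13 other heterochromatin factors, such as swi6, chp1, ago1 and dcr1, had a median of 0.14 and none past 1. Of these 13, 11 were above 0, against 54.3% of all measured genes. Their median level in wt was 0.76, and arm tiles whose mean of both arrays was between 0 and 1 differed by 0.06 (quartiles -0.06 and 0.17). The Tf2 retrotransposons, 10 measured of 13, read 2.09 in wt and 2.20 in clr3-CDx2 with a median difference of 0.06, which turned to -0.11 on the ChIP signal alone and was 0.65 under the pericentromeric scaling, with all 10 above 0. That scaling also moved the SHREC genes to 0.24 and the other heterochromatin factors to 0.34.

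Meiotic genes, which carry H3K9me3 in islands during growth and are silenced there, read slightly higher in clr3-CDx2. Of the 12 measured, 10 were above 0, against 54.3% of all genes, the median difference was 0.37, and none was called. Next to mbx2 came mug9 (0.65), mcp7 (0.47), ssm4 (0.46) and num1 (0.45). mei4, a forkhead transcription factor gene, read -0.15 in wt and 0.22 in clr3-CDx2 (0.36), and mei2, an RNA-binding regulator of meiosis, read -0.53 and -1.11 (-0.59). The list stayed above 0 under each alternative setting. Its genes were below 1 on both arrays, apart from spo5 at 1.35 and 1.60, and num1 at 1.09 in clr3-CDx2.

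Genes of the euchromatic control list read lower in clr3-CDx2. The 11 of them were all below 0, against 45.7% of all measured genes, with a median of -0.24 (wt -1.37, clr3-CDx2 -1.61). Under the pericentromeric scaling the median was -0.66, with 2 of the 11 above 0. Without centring 2 were above 0, and 1 under normexp background and 1 without repeated tiles. pgk1, a glycolytic gene, read -2.03 and -2.71 (-0.69), act1 -1.37 and -1.61 (-0.25) and adh1 -2.57 and -2.60 (-0.03). The 6 thiamine-repressed genes, which are expressed without thiamine, had a median of -0.22, all below 0, with nmt1 at -2.23 in wt and -2.73 in clr3-CDx2 (-0.50). Their median was -0.74 under the pericentromeric scaling, and -0.44 on the ChIP signal alone with 1 of the 6 above 0. Without centring 1 of the 6 was above 0, and under normexp background 2. Dim tiles read lower too: arm tiles whose mean of both arrays was under -2 had a median difference of -0.23 (1045 tiles). Those from -2 to -1, the level of the control list, had -0.15 (5930 tiles, quartiles -0.30 and -0.01), and those between 0 and 1 had 0.06 (14493 tiles). Mitochondrial tiles, which hold no histones, differed by -0.20 (57 tiles). The dimmest parts of the arrays thus read lower in clr3-CDx2, and so did the 127 arm tiles at 2 or more, at -0.18. The source of this was not tested.

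Domains of at least 5 tiles at 1 or more numbered 389 on the arms in wt and 441 in clr3-CDx2. Of those in wt 92.3% overlapped one in clr3-CDx2, and of those in clr3-CDx2 80.3% overlapped one in wt. The 87 found in clr3-CDx2 alone read 1.15 there and 0.98 in wt, so they lie about the threshold rather than apart. Runs of tiles that differed by at least 1 were far fewer, 7 higher (60.9 kb) and 20 lower (97.8 kb). In OFF cells 6 of the 7 higher and 12 of the 20 lower runs differed in the same direction. Across tiles, the differences in ON and OFF cells had Pearson's r of 0.378, as a description of these 4 arrays, which share their probes.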

How the data were processed

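H3K9me3 ChIP DNA (Cy5) and whole-cell input DNA (Cy3) of 4 samples, 1 per group, were hybridised to 60-mers spaced 300 bp apart. Per the file headers, Agilent Feature Extraction 12.0.3.1 turned the scans into intensity values, with linear dye normalisation, and into a log10 ratio of red to green. The log2 ratios in the authors' deposited matrix were equal to log2 of processed red over green on every tile, with no centring. Median input signal was 417 to 490 times background and ChIP signal 137 to 166 times, and no tile was saturated. The number of arrays limits the precision.

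From these the log2 ratio of processed signals less the array median was computed, without loess. Spots marked non-uniform were left out, with keeping them as an alternative, and 1417 control spots were dropped. The build of the array is not given in the sources used here. Tiles of each arm were moved by -1700 to 4500 bp, to where input signal correlated best with the GC content of ASM294v3 (r 0.206 to 0.270, and at most 0.081 further than 1 kb away). Tiles named as repeated gave like offsets. Positions of runs and domains are those of the array, and gene positions those of ASM294v3. Repeated tiles (1784) carry a repeat name or have a share over 0.5 of their 31-base words elsewhere. Genes took the median of their tiles, 2 or more being needed, and a run needs 5 tiles after a running median of 3. Alternatives were normexp background (limma 3.58.1, offset 50, on the median signals of the scanner files), mode centring, no centring, scaling to equal pericentromere medians, no repeated tiles, the ChIP channel alone, and at least 3 tiles per gene. The scaling multiplied log2 ratios by a factor per array, from pericentromere medians with marked spots kept (3.56 in wt, 2.76 in clr3-CDx2). The calling of genes and runs was tried on simulated data with Python 3.11.15, numpy 2.4.6 and pandas 2.3.3. The planted differences exceeded the threshold and the noise was independent between tiles. This checked the calculation only and says nothing on how reliable the calls in these arrays are. The text names, in each direction, the 15 called genes with the largest differences, called genes of the right end of chromosome I, genes of the ectopic core and flanks, ade6, ura4, clr3 and the list members, apart from 1 gene and the list that holds it, which are not reported here. The members and lists were chosen with earlier results of these data known.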

Additional observations from a re-analysis of the deposited data

Results flagged for a closer look

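The ectopic core differed between genotypes by -0.55 in ON cells and by 3.23 in OFF cells, opposite directions and a gap of -3.79 on the log2 scale. Its right flank differed by -0.65 and 0.95 (gap -1.60). The flank tiles are those of the wt ON run past the end of the clr3-CDx2 ON run, though their median in clr3-CDx2 ON was 1.05. That choice favours the negative sign in ON cells, and nothing is read from that sign. The same limit holds for the flank genes pcm1, btb1 and sdh3. Among called genes, mug135 was at -1.14 in ON cells against 3.23 in OFF cells (gap -4.38), ade6 by -1.28 and 3.44 (gap -4.72), sdh3 by -1.29 and 1.004 (gap -2.29), pcm1 by -1.19 and 1.06 (gap -2.25) and btb1 by -1.32 and 0.63 (gap -1.96). Each was picked out because the genotypes differed in opposite directions in the ON and OFF pairs. With 1 array per group the difference between the pairs was not tested.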

How the results depend on the processing

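Scaling both arrays to equal pericentromeric signal had the widest effect: 30 genes were called higher in place of 19 and 0 lower in place of 6, so 100% of called genes were higher in place of 76%. This scaling multiplies the log2 ratios of each array by a factor. It shrinks wt values and enlarges clr3-CDx2 values on both sides of 0, so it moves bright tiles up and dim tiles down (mitochondrial tiles to -0.99). Under it subtelomere I right stood at 2.39, the right flank at -0.38, the mating-type contig at -0.18, the pericentromeres at -0.54, and the ectopic core turned to 0.086, ura4 to 0.44 and tlh1 to 0.43. On the ChIP channel alone 10 genes were higher and 0 lower (100% higher), subtelomere I right differed by 1.33, the pericentromeres by -0.44 and the ribosomal DNA at the left of chromosome III by -1.37. Without repeated tiles 8 genes were higher and 5 lower (61.5% higher), the mating-type contig was at -0.87 and subtelomere I right at 2.30. Normexp background moved the ribosomal DNA to -2.17. The cause of these shifts was not tested. The uncentred ratios moved the median tile by 0.06. For 28 single genes, 117 of 183 values under the alternatives stayed within 0.234 of the value given, 64 kept their sign but differed from it by more, and 2 changed sign. The alternatives for the ribosomal DNA, the flank, single genes and lists were chosen after seeing the data. No paired analysis was possible because each group has 1 array, and no replicate could be left out for the same reason.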

Other observations

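Unique arm tiles that were lower by at least 1 while both neighbours differed by less than 0.5 numbered 35, and 32 of them (91.4%) lay in a band of 90 neighbouring rows of the array that holds 17.2% of unique arm tiles. The band was chosen after the values were seen. These isolated tiles had a median difference of -1.18 in ON cells and -0.09 in OFF cells. Of the 65 lower tiles with a neighbour past 0.5, 32.3% lay in the band, and of the 39 higher arm tiles 20.5%.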
